A study of Mus musculus with 9 samples.

Results

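The genes described here are 36 chaperones, folding enzymes, stress sensors and degradation factors of the endoplasmic reticulum (ER), picked by name out of a table of 55401 mouse gene IDs. All 36 matched an Ensembl ID, and 35 passed the filter on low counts. The exception was Derl3, a member of the derlin family that draws misfolded proteins out of the ER, with 2 to 13 counts per library. Poly(A) RNA was sequenced from primary macrophages of the mouse peritoneum, recruited by injected thioglycollate broth, which were left to attach for a short time in medium with 10% fetal bovine serum. There were 9 libraries, 3 per genotype: mice with the Stat6 S807E change on both alleles (SE), mice with the Stat6 S807A change on both alleles (SA), and wild type mice (WT). A change of residue cannot be seen in counts per gene. STAT6 is the transcription factor of interleukin-4 and interleukin-13 signalling. Glutamate (SE) carries a negative charge like that of a phosphate, and alanine (SA) cannot be phosphorylated. The labels give no age, sex or number of animals, and they do not say whether the libraries came from separate animals, and the p-values below therefore reflect only how these libraries vary. No cytokine or ER stressor was named in the labels for any genotype.

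The ER folds secreted and membrane proteins. BiP (encoded by Hspa5) is its main Hsp70 chaperone, and it also holds 3 membrane sensors in check: IRE1 (Ern1), which splices the mRNA of the transcription factor XBP1, PERK (Eif2ak3), which slows translation, and ATF6 (Atf6), which is cut free in the Golgi to become a transcription factor. When unfolded proteins gather, these sensors raise the chaperones, the disulfide enzymes and the machinery that returns misfolded proteins to the cytosol for degradation, a programme called the unfolded protein response. Macrophages use the same folding machinery for lysosomal enzymes, cytokines and surface receptors. Splicing of Xbp1 mRNA, cleavage of ATF6 and phosphorylation of PERK cannot be read from counts per gene, so every value below is a level of mRNA.

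Several of these genes share a promoter element that ATF6 is known to bind, the ER stress response element (ERSE). It is spelled CCAAT and CCACG with any 9 bases between them, and it was searched on both strands of the window from 250 bases before to 50 bases after the start of each gene (RefSeq, GRCm38.p6). A window was given for 29 of the 36 genes, and 10 of those 29 (34.5%) held an exact match, against 37 of 27025 genes (0.137%) over all windows. The letters of the windows were not used to choose the genes. The genes were chosen, however, as known members of the response that this element serves. Their higher share is therefore a description and no independent result. Each is written 5′ to 3′ in the orientation of the element, with its fixed ends in capitals and its spacer in lower case; Hsp90b1 held a pair of matches.
Hspa5, chr2:34772025-34772043 plus strand: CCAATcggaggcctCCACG
Hsp90b1, chr10:86705638-86705656 minus strand: CCAATcgcaaggagCCACG
Hsp90b1, chr10:86705533-86705551 plus strand: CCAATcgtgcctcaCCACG
Calr, chr8:84847075-84847093 plus strand: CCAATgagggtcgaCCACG
Canx, chr11:50325800-50325818 minus strand: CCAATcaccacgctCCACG
Pdia6, chr12:17266491-17266509 plus strand: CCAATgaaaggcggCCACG
Dnajc3, chr14:118937827-118937845 plus strand: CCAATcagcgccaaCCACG
Creld2, chr15:88819520-88819538 minus strand: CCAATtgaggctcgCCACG
Syvn1, chr19:6046532-6046550 plus strand: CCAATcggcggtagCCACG
Derl3, chr10:75893242-75893260 minus strand: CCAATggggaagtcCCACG
Ero1lb, chr13:12565682-12565700 minus strand: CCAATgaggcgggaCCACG
The related ERSE-II, spelled ATTGG and CCACG with any 1 base between them, was matched in 2 of the 29 windows (6.90%) and in 12 of all 27025 (0.0444%).
Dnajb11, chr16:22857852-22857862 plus strand: ATTGGcCCACG
Herpud1, chr8:94386377-94386387 plus strand: ATTGGgCCACG
A further element of the response, the UPRE, was searched by the letters TGACGTGG and was matched in 0 of the 29 windows and in 0.714% of all. The ERSE-II match of Dnajb11 lies after the start of the gene. The ERSE, ERSE-II and UPRE matches did not overlap in the listed genes. Hyou1, Manf, Atf6, Derl1, Sec61a1, Ppp1r15b and Hspa13 had no window in the table. The 250 bases before the start of 3 genes that the results return to follow, read on the strand of the gene, with an ERSE match in capitals on whichever strand it lies. Those of Hspa5, the most studied target of the response, lie on the plus strand at chr2:34771840-34772089.
Hspa5: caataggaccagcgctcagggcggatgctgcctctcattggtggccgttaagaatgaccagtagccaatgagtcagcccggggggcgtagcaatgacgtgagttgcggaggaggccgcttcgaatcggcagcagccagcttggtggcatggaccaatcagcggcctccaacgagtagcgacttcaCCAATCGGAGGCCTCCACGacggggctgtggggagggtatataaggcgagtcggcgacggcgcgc
Those of Creld2, which differed between the mutants and holds a match, lie on the plus strand at chr15:88819396-88819645.
Creld2: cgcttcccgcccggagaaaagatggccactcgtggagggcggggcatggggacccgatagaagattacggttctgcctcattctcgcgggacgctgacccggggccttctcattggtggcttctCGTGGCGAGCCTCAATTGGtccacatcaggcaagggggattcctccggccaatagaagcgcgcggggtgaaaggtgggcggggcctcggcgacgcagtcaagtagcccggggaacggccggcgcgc
Those of Pdia4, whose difference held under the most alternatives below, lie on the minus strand at chr6:47813513-47813762 and hold none of the 3 spellings.
Pdia4: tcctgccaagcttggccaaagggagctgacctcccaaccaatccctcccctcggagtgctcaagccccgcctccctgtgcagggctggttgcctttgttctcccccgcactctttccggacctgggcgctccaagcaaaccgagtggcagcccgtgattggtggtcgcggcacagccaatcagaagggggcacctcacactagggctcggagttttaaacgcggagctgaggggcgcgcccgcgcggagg
A match describes the letters of a window and is not a measured site, and an absent match says only that these letters are not there.

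Library totals ran from 17286617 to 24618608 counts. Levels are given as CPM, counts per 1000000 of the library total after scaling by the trimmed mean of M values (TMM). Stat6, the edited gene, averaged 296 ± 14.6 CPM in SE, 198 ± 2.92 in SA and 195 ± 7.53 in WT, 1.51-fold above WT in SE (edgeR adjusted p = 6.27e-06). The macrophage markers summed to 18206 to 20948 CPM in SE, 18397 to 19129 in SA and 18229 to 23355 in WT, all 8 of 8 with counts, so the defining genes of the labelled cell type were present. Of the B cell and plasma cell markers, Pax5 and Mzb1 stood at 0 in every library, and the list summed to 210 to 228 CPM in SE, 187 to 207 in SA and 235 to 244 in WT, nearly all of it Sdc1, Prdm1 and Irf4. Of 12 mesothelial and fibroblast markers 10 had counts. Msln and Wt1 stood at 0 throughout, and the sum was 721 to 821 CPM in SE, 877 to 929 in SA and 758 to 817 in WT. Lum and Upk3b also stood at 0 in SE and WT, and Col1a1, given below, was a small part of the sum. Handling stress genes (10 of 10 with counts) summed to 1420 to 1548 CPM in SE, 1296 to 1406 in SA and 1364 to 1422 in WT. Eosinophil markers (4 of 6 with counts, Ear1 and Ear6 at 0 throughout) summed to 21.6 to 26.2 CPM in SE, 15.8 to 17.7 in SA and 22.6 to 26.3 in WT. Neutrophil markers (5 of 6, Ly6g at 0 throughout) summed to at most 2.09 CPM in any library. T and NK cell markers (5 of 8, Cd3e, Cd3g and Ncr1 at 0 throughout) summed to 3.93 to 4.46 CPM in SE, 5.34 to 5.77 in SA and 5.31 to 6.22 in WT, mostly Cd4. Dendritic cell markers (6 of 6) did not exceed 3.53 CPM in sum and mast cell markers (3 of 6) 0.605 CPM in any library. Between SE and SA, the libraries did not overlap in the sums of B cell and plasma cell, handling stress, eosinophil and neutrophil markers (higher in SE) or of mesothelial and fibroblast and of T and NK cell markers (lower in SE), and their part in the differences described below was not tested. The macrophage, dendritic cell and mast cell sums of SE and SA overlapped. In RNA from a bulk of cells, fewer cells of a type and less RNA per cell cannot be told apart.

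The ER genes were abundant in all 3 genotypes. Together the 36 genes had 6965 to 7354 CPM per library in SE, 6741 to 6908 in SA and 6837 to 7037 in WT. The highest SA library therefore lay below the lowest SE library, whereas the SE and WT ranges overlapped. Abundant genes weigh most in this sum. Calr averaged 1437 CPM in SE and 1286 in SA, Hspa5 834 and 785, and P4hb 462 and 411. None of these passed the edgeR test between SE and SA below. Levels were also divided by the length of the merged exons, to allow them to be compared between genes. They spanned from 464 CPM per kb for Calr to 3.83 CPM per kb for Hspa13 among the 35 tested genes. Calr encodes calreticulin, a soluble lectin chaperone that buffers ER calcium. Its level per kb averaged 499 ± 21.2 in SE, 447 ± 12.4 in SA and 448 ± 13.0 in WT (SD, n = 3 each). Hspa5 followed at 197, 186 and 185 CPM per kb in SE, SA and WT, and Pdia3, a disulfide isomerase that works with calreticulin and calnexin on glycoproteins, at 174, 174 and 173. P4hb, the classical protein disulfide isomerase, Hsp90b1, the Hsp90 of the ER, and Os9, a lectin that hands misfolded glycoproteins to the degradation machinery, lay above 100 CPM per kb in every genotype. The sensors stood in the lower part of the same scale, in which the chaperones Hspa13 and Dnajb9 were also low. Atf6 averaged 15.7 CPM per kb in SE, 17.7 in SA and 16.9 in WT, Ern1 10.3, 9.31 and 10.4, and Eif2ak3 5.49, 5.60 and 5.73. Xbp1 stood above all 3 sensors, at 50.5, 50.3 and 51.5 CPM per kb. Derl3, not tested, had a level per kb of 0.146 in SE, 0.0907 in SA and 0.184 in WT, and its 3 libraries of each genotype overlapped those of the others.

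**Figure D1:**
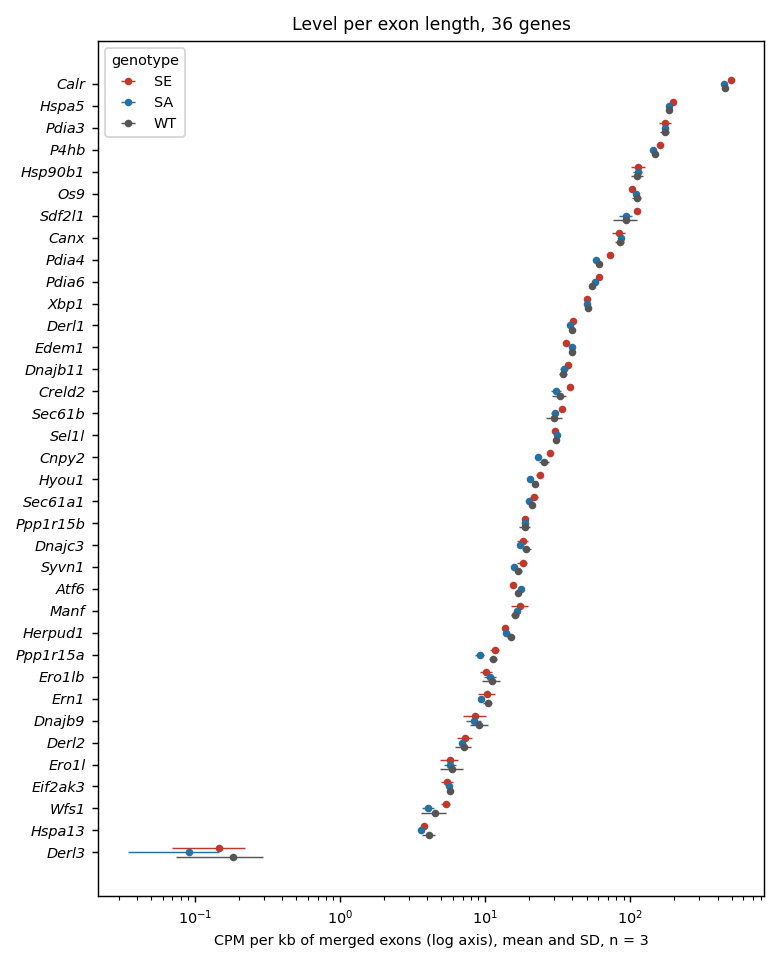
Level of each of the 36 genes in CPM per kb of merged exons on a log axis, with the mean (point) and SD (bar) of 3 libraries in SE (red), SA (blue) and WT (grey). Genes are ordered by their mean over all libraries: Calr stands highest and Derl3 lowest, and the 3 genotypes lie close together on this scale for nearly every gene.

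Within a genotype, libraries differed along the base composition of the genes. In WT2 the level of Sdf2l1, a partner of BiP with a GC content of 56.7% in its longest transcript, was 0.44 higher on the log2 scale than the mean of the other WT libraries, and Wfs1, at 57.8% GC, was 0.41 higher. Ero1l, an oxidase that recharges the disulfide isomerases, has 41.6% GC and was 0.46 lower in WT2 (a difference of -0.46), and Hsp90b1 (-0.23, 42.1% GC) and Derl2 (-0.26, 42.9% GC) went the same way. SE3 showed the same split against the other SE libraries, with Wfs1 0.18 higher and Ero1l at -0.38. Dnajb9, a J-domain partner of BiP (40.6% GC), was at -0.47. Near the middle of the GC range SE3 went both ways, with Ern1 (50.6% GC) 0.30 higher and Manf (51.0% GC) at -0.35. WT1 and SE2 showed the opposite split. Across the 35 genes, which share each library and its depth, the correlation (Pearson) of that difference with GC content was 0.82 in WT2 and 0.73 in SE3, and -0.84 in WT1 and -0.82 in SE2. It was 0.68 in SA3 and -0.71 in SA2. Over 13489 genes the same correlation, for the deviation of a library from its genotype mean, was 0.43 in WT2 and 0.39 in SE3. These are correlations across genes, which are not independent replicates, so they describe the libraries and carry no test. The median ER gene did not stand apart in any library: its deviation from the genotype mean lay between -0.03 and 0.02 in all 9. The median coefficient of variation of the 35 genes was 4.96% in SE, 3.68% in SA and 6.54% in WT.

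**Figure D2:**
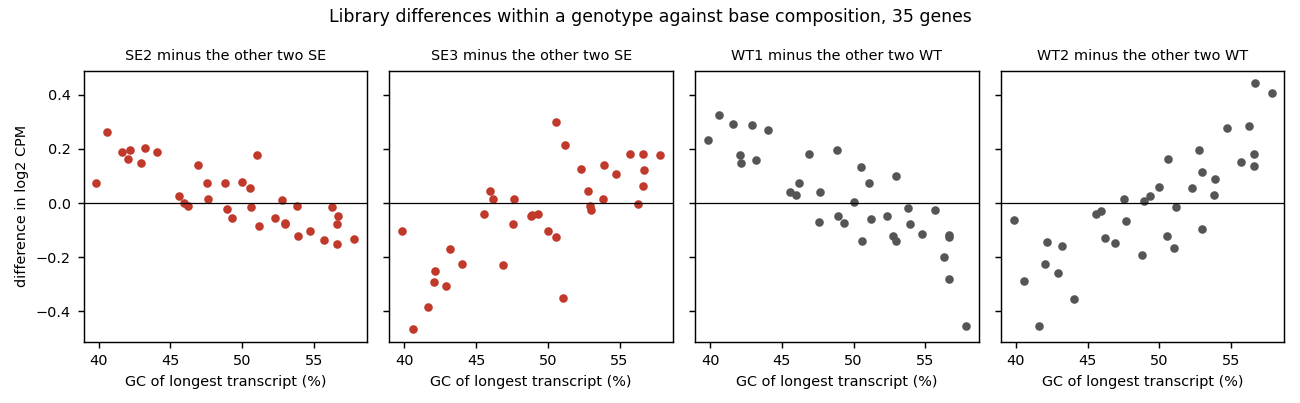
Difference in log2 CPM between a library and the mean of the other libraries of its genotype (y axis) against the GC content of the longest annotated transcript (x axis, percent), 1 point for each of 35 genes, for SE2, SE3, WT1 and WT2. The points rise with GC content in SE3 and WT2 and fall in SE2 and WT1.

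The difference between SE and SA, the charged and the uncharged residue, was where most calls fell. Stat6 mRNA itself was 1.49-fold above SA in SE (edgeR adjusted p = 5.15e-06). The residue and the level of Stat6 therefore cannot be told apart in this comparison. Of 35 tested genes 6 were higher and 1 was lower in SE (20.0%), where 10.2% of all 13501 tested genes were called (4.77% higher and 5.42% lower). The risen genes were Pdia4, Hyou1, Creld2, Cnpy2, Ppp1r15a and Wfs1, and the fallen gene was Atf6. Libraries of SE and SA did not overlap for 17 of the 35 genes (14 higher and 3 lower in SE), against 28.3% of all tested genes (14.2% higher and 14.1% lower). The changes were small: the median log2 change of the 35 genes was 0.07, against -0.003 over all tested genes, and 34 of 35 had a 95% interval that stayed within 1.5-fold either way. The exception was Wfs1, with an upper bound of 0.66. In the same comparison the log2 change of the 35 genes correlated with their GC content at r = 0.54 (0.14 over 13489 genes). With a curve of level against GC content taken out of each library, an alternative chosen after seeing the data, all 7 of these genes were called again, among 12 in all (9 higher and 3 lower). Log2 changes moved from 0.41 to 0.34 for Wfs1, 0.34 to 0.28 for Ppp1r15a and 0.31 to 0.26 for Creld2. They moved from 0.28 to 0.25 for Cnpy2, 0.21 to 0.18 for Hyou1 and -0.18 to -0.15 for Atf6. Only Pdia4 grew in size, from 0.30 to 0.32. GC content was 46.0% in the fallen Atf6, 47.6% in Pdia4 and 52.3 to 57.8% in the other risen genes. Over all tested genes that correction also raised the calls, from 1376 to 2101 of 13501. Without WT2 and SE3 together the 7 were called among 11. Leaving out single libraries lowered the count to 1 without SA1, 1 without SA2, 3 without SA3 and 4 without WT3, SE1 or SE3. The calls over all genes also fell, to 836 of 13730, 781 of 13732 and 908 of 13740 without SA1, SA2 and SA3. They fell to 811 of 13739 without SE1. Without SA1 or SA2, the 1 of 35 was a smaller share than that over all genes, unlike with all 9 libraries. Without SA3 or SE1 the share of the 35 genes stayed the larger.

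**Figure D3:**
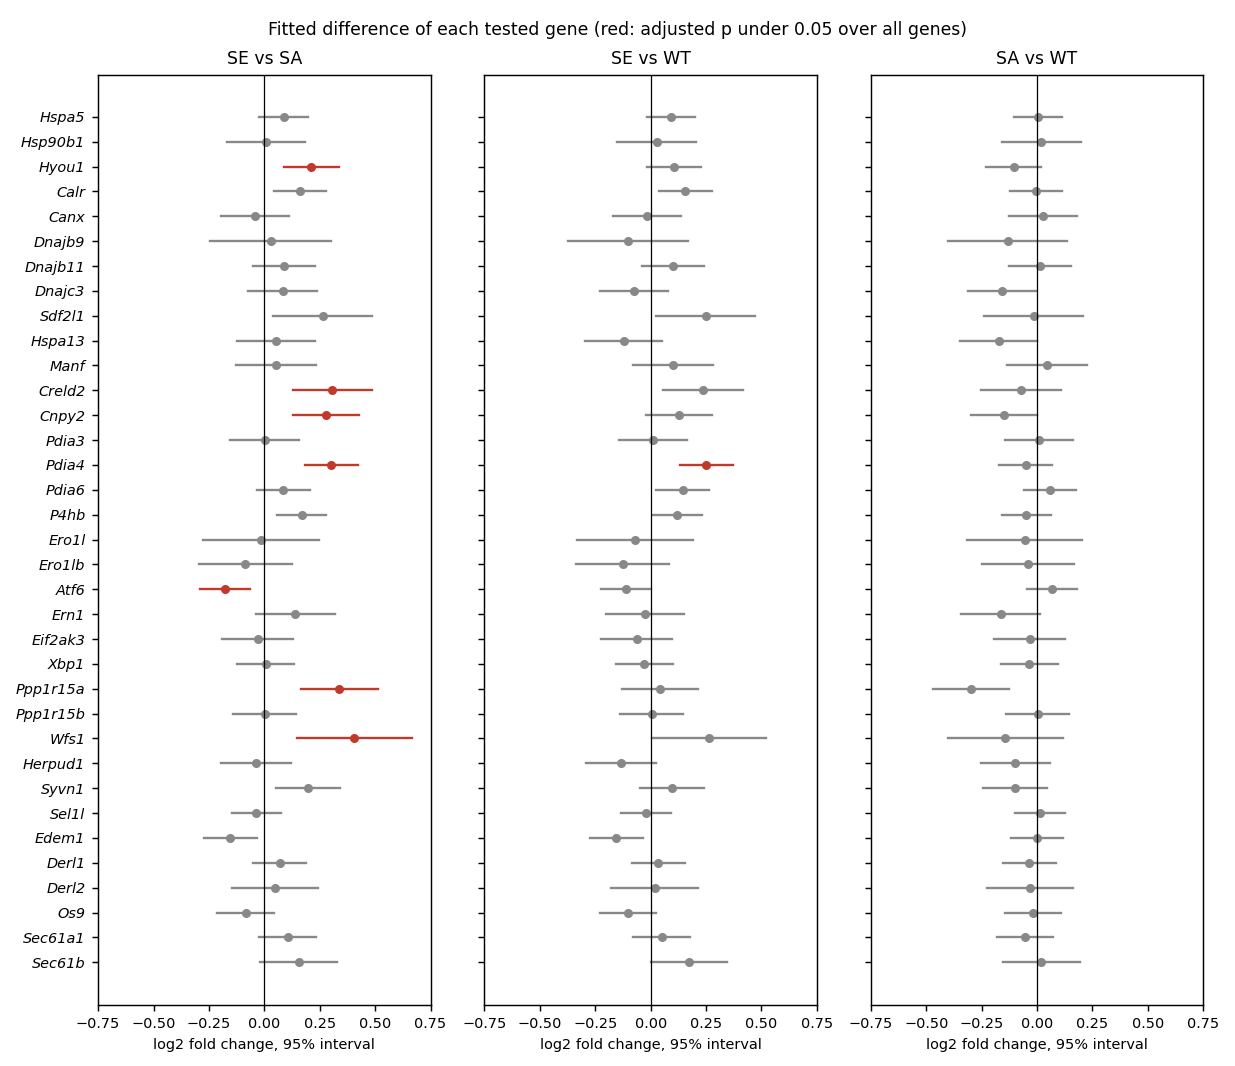
Fitted log2 fold change (point) and 95% interval (bar) of the 35 tested genes for SE vs SA, SE vs WT and SA vs WT, with genes called at an edgeR adjusted p under 0.05 over all genes in red. There are 7 red genes in SE vs SA, 1 in SE vs WT, which is Pdia4, and 0 in SA vs WT.

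Among the 13 chaperones, 3 rose in SE relative to SA and 0 fell, where 4.77% of all tested genes rose and 5.42% fell. Hyou1, a large Hsp70 that exchanges the nucleotide of BiP (ENSMUSG00000032115, mm10, chr9:44379490-44392369), had 166, 167 and 182 CPM in SE, against 154, 145 and 146 CPM in SA and 156, 164 and 159 CPM in WT. Every SE library lay above every SA library, and the WT libraries lay between them. The level was 1.16-fold above SA in SE (log2 change 0.21 ± 0.06, standard error, edgeR adjusted p = 0.0272). That call ended without WT3, SA1, SA2, SA3 or SE3 in turn and with library totals as the scaling (edgeR adjusted p up to 0.124). Creld2, a stress-induced protein of the ER and secretory route (ENSMUSG00000023272, chr15:88819646-88826683), had 52.2, 49.8 and 54.9 CPM in SE, 42.8, 38.6 and 45.5 CPM in SA, and 42.0, 50.4 and 41.1 CPM in WT. The SE and SA libraries did not overlap, and WT2 alone reached into the SE range. The level was 1.24-fold above SA in SE (0.31 ± 0.09, edgeR adjusted p = 0.0282), a call that ended without SA1, SA2, SE1 or SE3 in turn (edgeR adjusted p up to 0.164). Cnpy2, of the canopy family of ER proteins (ENSMUSG00000025381, chr10:128322459-128327553), had 47.3, 48.9 and 49.6 CPM in SE, 40.8, 38.4 and 40.9 CPM in SA, and 42.0, 48.7 and 42.9 CPM in WT. The SE and SA libraries did not overlap, and WT2 lay within the SE range. It was 1.21-fold above SA in SE (0.28 ± 0.07, edgeR adjusted p = 0.0182), and the call ended without any 1 of the SA libraries (edgeR adjusted p up to 0.101).

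The central chaperones did not pass the test. Hspa5 had 839, 844 and 819 CPM in SE, 798, 796 and 763 CPM in SA, and 798, 768 and 782 CPM in WT. All 3 SE libraries were above all libraries of the other genotypes, but the log2 change against SA was 0.09 ± 0.05 (edgeR adjusted p = 0.350), with a 95% interval from -0.02 to 0.20. With the GC correction it was called (log2 change 0.12, edgeR adjusted p = 0.0338). Calr had 1452, 1489 and 1370.0 CPM in SE, 1290.2, 1249 and 1320 CPM in SA, and 1292, 1325 and 1250.5 CPM in WT. Its SE libraries also lay above all others, at a log2 change of 0.16 ± 0.06 against SA (edgeR adjusted p = 0.0833), and with DESeq2, without SE3, without WT2 and SE3 together or with the GC correction it was called (lowest adjusted p = 0.00637). Hsp90b1, which folds Toll-like receptors and integrins, had 485, 492 and 399 CPM in SE, 462, 485 and 422 CPM in SA, and 487, 404 and 459 CPM in WT, with a log2 change of 0.01 between SE and SA. Canx, the membrane-bound partner of calreticulin, averaged 394 ± 40.7 CPM in SE, 405 ± 14.6 in SA and 398 ± 26.8 in WT. Sdf2l1 averaged 124 ± 6.19, 103 ± 10.4 and 104 ± 19.5 CPM in SE, SA and WT. Its log2 change against SA was 0.26, with a 95% interval from 0.04 to 0.49 and an edgeR adjusted p of 0.137. It was called with no filter, with only the 2 genotypes in the fit, without WT2 and without WT2 and SE3 together (edgeR adjusted p down to 0.00537). The J-domain proteins Dnajb9, Dnajb11 and Dnajc3, which hand substrates to BiP, had log2 changes of 0.03, 0.09 and 0.08 in SE against SA, and Manf, a secreted cofactor of BiP, 0.05. Hspa13, an Hsp70-like protein, had 0.05.

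Of the 6 disulfide enzymes, 1 rose in SE relative to SA, against 4.77% of all tested genes. Pdia4, a disulfide isomerase that works with BiP (ENSMUSG00000025823, chr6:47796141-47813430), had 173, 179 and 167 CPM in SE, 143, 144 and 134 CPM in SA, and 140.5, 146 and 149 CPM in WT. Its SE libraries stood above all 6 others, and its SA and WT libraries overlapped. It was 1.23-fold above SA in SE (0.30 ± 0.06, edgeR adjusted p = 0.00227). This was the only member call in this comparison that held under all 19 alternatives, with an adjusted p from 1.54e-05 to 0.0235. P4hb had 461, 460.1 and 466 CPM in SE, 428, 407 and 400.3 CPM in SA, and 422, 432 and 423 CPM in WT. The SE libraries did not overlap with those of either other genotype, and the log2 change of 0.17 ± 0.05 against SA missed the threshold (edgeR adjusted p = 0.0501). It was called by DESeq2, among genes of at least 5 CPM, without WT2, without WT2 and SE3 together and with the GC correction. Pdia6 and Pdia3, of the same family, had log2 changes of 0.09 and 0.001 in SE against SA. Pdia3 had 569, 582 and 490.5 CPM in SE, 553, 570.5 and 517 CPM in SA, and 589, 506 and 534 CPM in WT, and its groups overlapped throughout. Ero1l and Ero1lb, the oxidases, had log2 changes of -0.01 and -0.09.

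**Figure D4:**
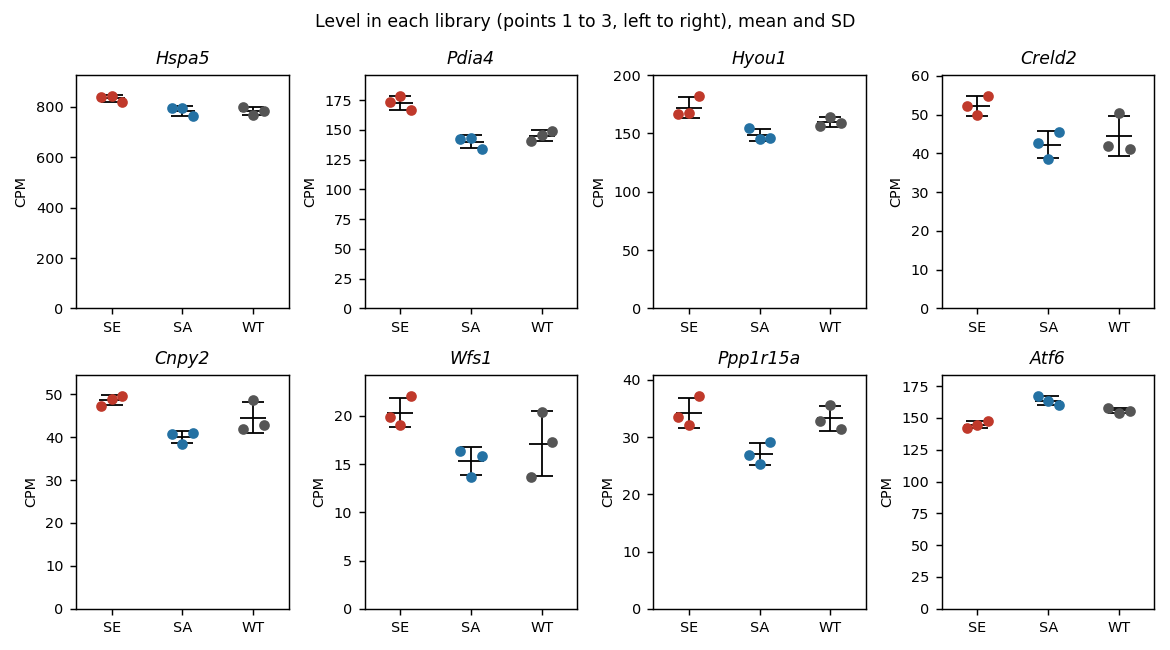
CPM in each of the 3 libraries (points, replicates 1 to 3 from left to right), with the mean and SD, in SE (red), SA (blue) and WT (grey) for Hspa5, the 6 genes that rose in SE relative to SA, and Atf6. The y axes start at 0. Every SE library lies above every SA library in all panels but that of Atf6, where every SE library lies below.

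Of the 7 sensor and signalling genes, 2 rose and 1 fell in SE relative to SA, against 4.77% and 5.42% of all tested genes. Atf6 (ENSMUSG00000026663, chr1:170704674-170867771) had 142, 145 and 147 CPM in SE, 167, 164 and 159.8 CPM in SA, and 158, 154 and 156 CPM in WT. The 3 genotypes did not overlap with each other, with SE lowest and SA highest. Atf6 was 1.13-fold below SA in SE (-0.18 ± 0.05, edgeR adjusted p = 0.0419). The call ended without WT3, SA1, SA2, SA3, SE1 or SE2 in turn, without WT1 and SE2 together and with no filter (edgeR adjusted p up to 0.147). Ppp1r15a, which brings a phosphatase to the initiation factor that PERK phosphorylates and so restores translation (ENSMUSG00000040435, chr7:45522916-45526268), had 33.4, 32.1 and 37.2 CPM in SE, 26.8, 25.4 and 29.1 CPM in SA, and 32.9, 35.7 and 31.4 CPM in WT. The SA libraries lay below all 6 others. It was 1.26-fold above SA in SE (0.34 ± 0.08, edgeR adjusted p = 0.0138), a call that ended without SA1, SA2 or SE3 in turn (edgeR adjusted p up to 0.0827). Ppp1r15b, the constitutive partner of the same phosphatase, averaged 105 CPM in each genotype. Wfs1, an ER membrane protein of calcium handling (ENSMUSG00000039474, chr5:36966104-36989205), had 19.9, 19.1 and 22.04 CPM in SE, 16.4, 13.7 and 15.9 CPM in SA, and 13.7, 20.4 and 17.3 CPM in WT. The SE and SA libraries did not overlap, and the WT libraries overlapped both. It was 1.33-fold above SA in SE (0.41 ± 0.12, edgeR adjusted p = 0.0428). That call ended without WT3 or any 1 of the SA and SE libraries, with library totals and among genes of at least 5 CPM (edgeR adjusted p up to 0.210).

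The other sensors and XBP1 did not pass the test. Ern1 had 73.1, 82.7 and 95.7 CPM in SE, 74.1, 75.3 and 78.8 CPM in SA, and 79.8, 91.9 and 84.4 CPM in WT, so the SE libraries spread across the whole range. Its log2 change in SE against SA was 0.14 ± 0.08 (edgeR adjusted p = 0.350). Eif2ak3 had 31.0, 31.7 and 36.4 CPM in SE, 34.99, 32.5 and 33.7 CPM in SA, and 33.6, 34.3 and 35.7 CPM in WT, a log2 change of -0.03 with a 95% interval from -0.19 to 0.13. Xbp1 had 172, 158 and 162 CPM in SE, 162, 173 and 156 CPM in SA, and 175, 160.0 and 167 CPM in WT. All its groups overlapped, and its log2 change between SE and SA was 0.01, with a 95% interval from -0.12 to 0.13.

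Of the 8 degradation genes 7 were tested, and edgeR and DESeq2 each called 0 in all 3 comparisons, although other alternatives called 3 of them. At an unadjusted p under 0.05 there were 2 in SE vs SA (Syvn1 and Edem1), 1 in SE vs WT (Edem1) and 0 in SA vs WT. Of all 13501 tested genes, 3067, 2467 and 1848 were under that limit in the same comparisons. Edem1, a lectin that picks glycoproteins for degradation, had 231, 230.0 and 233 CPM in SE, 252, 265 and 255 CPM in SA, and 266, 242 and 264 CPM in WT. The SE libraries lay below all others, at a log2 change of -0.15 ± 0.06 against SA (edgeR adjusted p = 0.0985) and -0.15 against WT (edgeR adjusted p = 0.132). It was called as lower against SA with library totals, without WT2 and SE3 together and with the GC correction (edgeR adjusted p down to 0.0314), and against WT without WT2, without WT2 and SE3 together and with the GC correction (down to 0.0185). Syvn1, the ubiquitin ligase of the pathway, averaged 88.1 ± 6.92 CPM in SE, 76.9 ± 1.81 in SA and 82.5 ± 4.89 in WT, with a log2 change of 0.20 between SE and SA (edgeR adjusted p = 0.0814). It was called as higher without WT2, without SE2 and without WT1 and SE2 together (edgeR adjusted p down to 0.0341). Sel1l, which anchors that ligase, averaged 259 ± 2.98, 266 ± 7.35 and 263 ± 6.96 CPM in SE, SA and WT. Os9, Derl1, Derl2 and Herpud1, an adaptor of the complex, had log2 changes of -0.08, 0.07, 0.05 and -0.04 in SE against SA. With the GC correction Os9 had -0.14 and was called as lower (edgeR adjusted p = 0.0159), and it was also called as lower against WT (edgeR adjusted p = 0.0314). The translocon subunits Sec61a1 and Sec61b, through which nascent chains enter the ER, had log2 changes of 0.10 and 0.15, and neither was called by edgeR or DESeq2.

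In SE against WT, 1 of the 35 genes was called, Pdia4, where 5.04% of all tested genes were (2.35% higher and 2.69% lower). It averaged 173 ± 5.97 CPM in SE and 145 ± 4.34 CPM in WT, 1.19-fold above WT in SE (0.25 ± 0.06, edgeR adjusted p = 0.0142). That call ended without WT1, WT3, SE1 or SE2 in turn and without WT1 and SE2 together (edgeR adjusted p up to 0.155). The libraries of SE and WT did not overlap for 8 of 35 genes (6 higher and 2 lower), against 20.5% of all tested genes (10.1% higher and 10.4% lower). The 6 higher were Hspa5, Calr, Pdia4, Pdia6, P4hb and Hyou1, and the 2 lower were Atf6 and Edem1. The medians were 0.03 for the 35 genes and -0.003 for all tested genes, and all 35 intervals stayed within 1.5-fold. Creld2 and Sdf2l1 had log2 changes of 0.24 and 0.25 (edgeR adjusted p = 0.129 and 0.211), and in both genes WT2 was the highest WT library. Without WT2, 6 of the 35 genes were called (Pdia4, Creld2, Sdf2l1, Sec61b and Wfs1 higher, Edem1 lower), and without WT2 and SE3 together also 6, with Calr in place of Wfs1. The GC correction called 6 as well (Pdia4, Calr, Pdia6 and Creld2 higher, Edem1 and Os9 lower), where the log2 change had correlated with GC content at r = 0.53 over the 35 genes and 0.12 over 13489 genes. Over all tested genes the calls also rose from 680, to 1097 without WT2, 1215 without WT2 and SE3 together and 1413 with the GC correction. SE vs WT and SE vs SA share the SE libraries, and SE vs WT and SA vs WT share the WT libraries, so they are not independent readings.

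In SA against WT, 0 of the 35 genes were called by edgeR, where 4.07% of all tested genes were (1.97% higher and 2.1% lower), and 2 were lower at an unadjusted p under 0.05. Of all 13501 tested genes 1848 were under that unadjusted limit (903 of them higher). DESeq2 called 1, Ppp1r15a. Ppp1r15a averaged 27.1 ± 1.87 CPM in SA and 33.3 ± 2.17 CPM in WT, a log2 change of -0.30 ± 0.08 that missed the threshold (edgeR adjusted p = 0.0511), but it was called under 6 of 19 alternatives, among them without SE3 (edgeR adjusted p = 0.0270). The other was Dnajc3, at 88.8 ± 4.12 CPM in SA and 98.9 ± 7.24 CPM in WT (-0.16 ± 0.07, edgeR adjusted p = 0.352), which was called as lower without WT2 and SE3 together and with the GC correction (edgeR adjusted p down to 0.0215). Libraries did not overlap for 6 of 35 genes (1 higher and 5 lower), against 19.3% of all tested genes (9.6% higher and 9.71% lower). The 1 higher was Atf6, and the 5 lower were Hyou1, Ern1, Cnpy2, Ppp1r15a and Hspa13. The medians were -0.03 for the 35 genes and 0.001 for all tested genes. All 35 intervals stayed within 1.5-fold, and the widest bounds were -0.47 for Ppp1r15a and 0.23 for Manf. Hspa5, at 785 ± 19.5 CPM in SA and 783 ± 15.2 CPM in WT, had a log2 change of 0.005 with a 95% interval from -0.11 to 0.11.

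**Figure D5:**
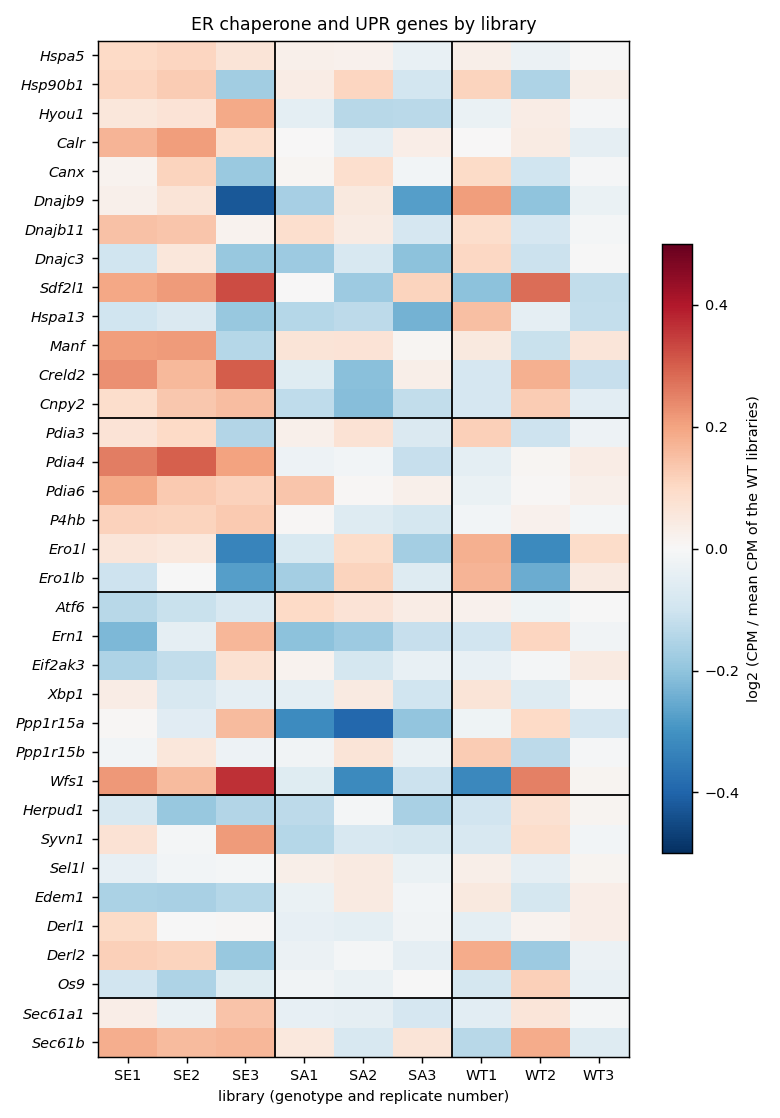
Log2 ratio of CPM in each library to the mean CPM of the WT libraries for the 35 tested genes (rows, in blocks of chaperones, disulfide enzymes, sensors and signalling, degradation and translocon) in SE, SA and WT libraries (columns, 3 each), from blue (lower) to red (higher). Pdia4 is red in all 3 SE columns, Ppp1r15a is blue in all 3 SA columns, and WT2 and SE3 show the split by base composition.

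The genes were also read by whether their window held an ERSE match. Of the 9 tested genes with a match, 1 was called in SE vs SA (Creld2), 0 in SE vs WT and 0 in SA vs WT. Of the 19 tested genes with a window and no ERSE match, 4 were called in SE vs SA, 1 in SE vs WT and 0 in SA vs WT. Dnajb11 and Herpud1, which hold an ERSE-II match, are among these 19. The 7 genes without a window are left out, among them Hyou1 and Atf6, which were called in SE vs SA. The median log2 changes in SE vs SA were 0.09 with an ERSE match and 0.05 without. Over all tested genes, 10.2% were called in SE vs SA, with a median of -0.003, so 1 of 9 lies near that share.

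The rest of the ER machinery was read from 157 further genes in 9 lists, of which 152 were tested. In SE vs SA 9 rose and 5 fell, in SE vs WT 7 rose and 3 fell, and in SA vs WT 3 rose and 1 fell. These are 9.21%, 6.58% and 2.63% of the 152, against 10.2%, 5.04% and 4.07% of all tested genes. Stt3b, a catalytic subunit of the oligosaccharyltransferase, averaged 350.4 ± 9.7 CPM in SE, 289 ± 9.11 in SA and 303 ± 13.6 in WT, 1.21-fold above SA in SE (edgeR adjusted p = 0.00391) and 1.16-fold above WT (edgeR adjusted p = 0.0378). Atp2a2, the calcium pump of the ER, averaged 370.1 ± 16.7, 300.4 ± 5.41 and 319 ± 9.47 CPM in SE, SA and WT, 1.23-fold above SA and 1.16-fold above WT in SE (edgeR adjusted p = 0.00181 and 0.0307). Sec61g, the smallest subunit of the translocon, was 1.36-fold above SA in SE, at 27.4 ± 0.910 CPM in SE, 20.1 ± 0.928 CPM in SA and 24.3 ± 3.05 CPM in WT (edgeR adjusted p = 0.00402). Sel1l3, a relative of Sel1l, was lower in SE than in either other genotype, at 45.1 ± 2.02 CPM in SE, 69.3 ± 1.83 in SA and 64.5 ± 1.66 in WT. Its edgeR adjusted p was 8.02e-06 against SA and 0.000109 against WT. Retreg1, a receptor that sends ER to autophagy, averaged 30.8 ± 2.01, 41.8 ± 1.27 and 40.6 ± 4.50 CPM in SE, SA and WT, with an edgeR adjusted p of 0.00234 against SA and 0.00815 against WT. Map3k5, a kinase downstream of IRE1, averaged 18.5 ± 2.08 CPM in SE, 22.6 ± 0.865 in SA and 24.9 ± 1.71 in WT, 1.35-fold below WT in SE (edgeR adjusted p = 0.00878). Itpr2, a calcium release channel, averaged 41.4 ± 3.15, 50.2 ± 1.88 and 48.1 ± 3.59 CPM in SE, SA and WT, 1.21-fold below SA in SE (edgeR adjusted p = 0.0272). Tmem129, a ubiquitin ligase of ER degradation, averaged 25.8 ± 0.571, 21.7 ± 0.387 and 24.7 ± 1.06 CPM in SE, SA and WT, 1.19-fold above SA in SE (edgeR adjusted p = 0.0371). The remaining calls in SE vs SA were Mcfd2 and Ckap4, both 1.18-fold above SA in SE, Rtn4, 1.16-fold below, Fkbp10, described below, and, in the ATF4 arm, Atf4, Ddit3 and Cebpb, all higher.

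In the ATF4 arm, which lies downstream of PERK in the unfolded protein response, 5 of 11 tested genes rose in SE relative to WT (Atf4, Ddit3, Atf5, Asns and Chac1, the last with 1 to 14 counts per library). In SA relative to WT 2 rose (Asns and Nupr1) and 1 fell (Cebpb). Activity of PERK cannot be read from these counts, and its part in these changes was not tested. Over all tested genes 2.35% were called higher in SE vs WT, and 1.97% higher and 2.1% lower in SA vs WT. Ddit3, which encodes the transcription factor CHOP and is known to induce Ppp1r15a, averaged 33.8 ± 2.37 CPM in SE, 25.2 ± 0.588 in SA and 26.5 ± 2.06 in WT. Its level was 1.34-fold above SA in SE (edgeR adjusted p = 0.00227). Ppp1r15a had a log2 change of 0.04 in SE against WT (edgeR adjusted p = 0.846), and a link between Ddit3 and Ppp1r15a was not tested. In SA relative to WT the 1 called gene outside that arm was Fkbp10, a prolyl isomerase of the ER that folds collagen, with 15 counts over the 3 SE libraries, 68 over the 3 SA libraries and 3 over the 3 WT libraries. The ratio of SA to WT was 23.3 (exact 95% interval from 7.65 to 116, counting error only). Col1a1, a chain of type I collagen, averaged 4.18 CPM in SE, 19.2 CPM in SA and 1.39 CPM in WT, and its part in the Fkbp10 difference was not tested. P4hb, which is also a subunit of the collagen prolyl hydroxylase, had a log2 change of -0.05 in SA against WT.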

How the data were processed

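Raw read counts per Ensembl mouse gene were deposited by the authors for 9 libraries, with no normalization. The submitters' processing notes name the aligner HISAT2 2.1.0, the counter featureCounts and the build mm10. Neither a featureCounts version nor the annotation release, strand setting or handling of multiply mapped reads is given in the sources used. GENCODE M21 held 55141 of the 55401 gene IDs and gave symbols, positions, merged exon lengths and transcript GC content. Without a stated strand setting, reads where genes overlap cannot be assigned with certainty; among the genes described, Manf overlaps Dcaf1 and Rbm15b, Syvn1 overlaps Mrpl49 and Derl2 overlaps Mis12 in exons.

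All 9 libraries were fitted together with edgeR 4.0.16 in R 4.3.3: filterByExpr on genotype (minimum count 10, minimum total 15) kept 13501 genes, scaling was by TMM, and the robust quasi-likelihood fit had genotype as its only factor, leaving 6 residual degrees of freedom at a biological coefficient of variation of 6.75%. Contrasts were tested by the 2-sided quasi-likelihood F test and called where p, adjusted over all 13501 genes by Benjamini and Hochberg, was under 0.05. Fold changes, standard errors and 95% intervals come from that fit. The low-count limit of 3 counts corresponds to 0.122 to 0.174 CPM and covers counting error only. DESeq2 1.42.0 was an alternative. The genes and lists were chosen with earlier results of these data known, so no set test was run. Genes were named if called in any comparison; Hspa5, Atf6, Ern1, Eif2ak3, Xbp1 and the 3 highest per kb (Calr, Hspa5 and Pdia3) were always named. Of the further lists, up to 4 risen and 4 fallen genes per comparison were named, with the ATF4 arm given mainly as counts. Genes whose libraries did not overlap, the names given from the ATF4 arm, Mcfd2, Ckap4, Rtn4 and Col1a1 were named after their values were seen. A marker gene of the B cell list is not reported here.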

Additional observations from a re-analysis of the deposited data

How the results depend on the processing

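The 105 fitted differences (35 genes in 3 comparisons) were each recomputed under 19 alternatives. Of 1995 recomputed values 1909 kept their side of the threshold, and no call changed direction. Of 8 called differences 7 were lost under at least 1 alternative, and 17 uncalled ones passed under at least 1. Scaling moved the median of all genes by at most 0.05 on the log2 scale (-0.045 in SE vs SA with library totals).

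In SE vs SA the 7 became 4 with the replicate block, 11 without WT2 and SE3 together and 12 with the GC correction, and 1 to 10 when each library was left out in turn. In SE vs WT the 1 became 2 with no filter, 6 without WT2 and SE3 together, 0 without WT1 and SE2 together and 6 with the GC correction, and 0 to 6 with libraries left out in turn. In SA vs WT the 0 became 1 with no filter, with DESeq2 and with only the 2 genotypes in the fit, 2 without WT2 and SE3 together and 2 with the GC correction, and 0 to 1 with libraries left out in turn. For the 157 further genes, the 14 in SE vs SA became 22 without WT2 and SE3 together and 30 with the GC correction (8 to 22 with libraries left out, lowest without SA3 and highest without WT2). The 10 in SE vs WT became 6 with only the 2 genotypes and 4 without WT1 and SE2 together (2 to 13, lowest without WT3), and the 4 in SA vs WT became 8 and 7 without WT2 and SE3 together and with the GC correction (3 to 5). Over all genes, the 1376 in SE vs SA became 2101 with the GC correction (781 to 1762). The 680 in SE vs WT became 438 with only the 2 genotypes, 1215 without WT2 and SE3 together, 372 without WT1 and SE2 together and 1413 with the GC correction (292 to 1097). The 549 in SA vs WT became 903 without WT2 and SE3 together and 1001 with the GC correction (297 to 652). The cause of these shifts was not tested. The GC correction, added after seeing the data, treats its fitted curves as known, so its p-values carry no error for them.

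The counts showed no sign of pairing by replicate number. Deviations of same-numbered libraries from their genotype means correlated at -0.19 to 0.10, and those of other pairs at -0.26 to 0.27. A library correlated best with its own number in 6 of 18 cases. With 3 libraries per genotype this check cannot show that the samples were unpaired. With the replicate block, the calls of Hyou1, Atf6 and Wfs1 in SE vs SA were lost, and 4 of the 7 remained. Depth limits Derl3, at 2 to 13 counts, to a description.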
